A study of Homo sapiens with 6 samples.

Results

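A set of 10 genes was grouped by their known roles in cellular iron handling, and the mRNA levels were followed in K562 cells expressing an shRNA against the long noncoding RNA lncRNA-IUR-5. They were TFRC, STEAP3 and SLC11A2 for uptake, FTH1 and FTL for storage, NCOA4 for ferritin breakdown, SLC25A37 for mitochondrial import, SLC40A1 for export, and ACO1 and IREB2 for the iron regulatory proteins. The rows of the deposited table are RefSeq protein accessions, so isoforms of a gene stand in separate rows, and a gene's rows were found through the gene of each protein. The 10 genes held 38 of the 109018 rows and were 10 of the 19053 genes that could be given a symbol. K562 is a Bcr-Abl-positive erythroleukaemia line from chronic myeloid leukaemia. All cells carried a stably integrated lentiviral shRNA, which targeted either lncRNA-IUR-5 (sh-IUR-5, named sh-lncRNA-IIRX in the labels) or luciferase as the control (sh-luc), with 3 libraries per shRNA. The protocol speaks of independent groups of cells, but the library names number libraries 2 and 3 of each shRNA as parts of 1 series, so that their spread may be partly technical. A single hairpin represents the knockdown, and the level of lncRNA-IUR-5 itself was not analysed here, since the rows are proteins.

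Cells take up transferrin-bound iron through the transferrin receptor, reduce it in the endosome, pass it to the cytosol, store the surplus in ferritin and release the rest through ferroportin. When iron is scarce, the iron regulatory proteins bind a short RNA hairpin, the iron-responsive element. Binding in a 5′ untranslated region blocks translation, as for ferritin, and binding in a 3′ untranslated region protects the mRNA from decay, as for the transferrin receptor. Erythroid cells are known for very high iron uptake, because they build heme.

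The target of the hairpin is shown to place the perturbation. It matched 1 place in hg38, chr11:95232933-95232953 on the plus strand, inside an annotated exon of LNCRNA-IUR, and none of the annotated mRNAs of the 10 iron genes held it. The sequence is written 5′ to 3′ in lower case throughout, since no part of it is singled out.
sh-IUR-5 target: gctagtatcaggtttaaatag

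The iron-responsive elements are shown because they divide the 10 genes. The genes were grouped by iron roles that include the iron regulatory proteins and known carriers of the element. Matches among them are therefore background and no result of these data. The untranslated regions of GENCODE transcripts on hg38 were searched on the sense strand for a C, then 5 bases, then the loop letters CAGTGN, then 5 bases that pair with the earlier 5. The pattern was found in the 5′ untranslated region of 39 of 19676 genes (0.198%), among them FTH1, FTL and SLC40A1. It was found in the 3′ untranslated region of 142 genes (0.722%), among them TFRC, which held 4 matches. Each is written 5′ to 3′ in the direction of the mRNA, with the loop in capitals.
FTH1, 5′ untranslated region, chr11:61967574-61967602, minus strand: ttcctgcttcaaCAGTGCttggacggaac
FTL, 5′ untranslated region, chr19:48965335-48965363, plus strand: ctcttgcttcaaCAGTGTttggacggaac
SLC40A1, 5′ untranslated region, chr2:189580661-189580689, minus strand: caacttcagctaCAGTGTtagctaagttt
TFRC, 3′ untranslated region, chr3:196050463-196050491, minus strand: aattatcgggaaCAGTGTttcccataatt
TFRC, 3′ untranslated region, chr3:196050510-196050538, minus strand: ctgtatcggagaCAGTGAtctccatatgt
TFRC, 3′ untranslated region, chr3:196050575-196050603, minus strand: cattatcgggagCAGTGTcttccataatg
TFRC, 3′ untranslated region, chr3:196050979-196051007, minus strand: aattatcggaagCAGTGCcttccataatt
The element of SLC40A1 was annotated in 1 of its 5 coding transcripts, while the elements of TFRC stood in 10 of 11 and that of FTH1 in 7 of 8. SLC11A2 is known to have an isoform with such an element, but no match to this pattern was found in its annotated untranslated regions. Lengths of the table's rows were multiples of 3 in 99.784% of cases, so the rows cover coding sequence, and reads from the untranslated regions that hold these elements were not counted.

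The libraries held 21023739 to 31481109 counted reads. Levels are given as RPKM, reads per kilobase of coding length scaled to the library's counted reads, summed over a gene's rows. Changes are given as log2 fold changes of sh-IUR-5 over sh-luc from edgeR's quasi-likelihood test on summed reads, after TMM scaling, with Benjamini-Hochberg adjustment over 22162 features that had a mean of at least 1 RPKM. TMM scaling moves the reference: its factors were 0.924 to 0.939 in sh-luc and 1.05 to 1.11 in sh-IUR-5, and the median log2 fold change over the genes was 0.02 with it and 0.23 with total reads alone. RPKM is scaled to total reads only, so ratios of RPKM run higher than the fold changes. The 9 markers used for K562, 8 erythroid genes and BCR, were all measured, and 9 markers of T cells, B cells, monocytes, epithelium, fibroblasts and liver stayed under 1 RPKM on average, while LYZ and EPCAM were present at 85.5 and 91.4 RPKM in sh-luc. Of the 8 erythroid genes, 1 was higher, 5 were lower and 2 did not pass, and BCR was higher (0.48). The fetal globin genes HBG1 and HBG2 and the embryonic genes HBE1 and HBZ were lower in sh-IUR-5, with log2 fold changes from -0.88 to -0.53, the erythroid factor TAL1 was higher, at 0.72, the factor GATA1 was lower, at -0.35, and the factor KLF1, at -0.15, did not pass. Their part in the changes of the iron genes was not tested. In bulk RNA, fewer cells of a type and less RNA per cell cannot be told apart.

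In sh-IUR-5 cells, 6 of the 10 iron genes were higher and 2 were lower past an adjusted p of 0.05. The risers were TFRC, SLC11A2, NCOA4, SLC40A1, ACO1 and IREB2, which span uptake, ferritin breakdown, export and the iron regulatory proteins. The fallers were both ferritin subunits, FTH1 and FTL. STEAP3 and SLC25A37 did not pass. Calls were common in this comparison: 40.4% of all tested features passed, 20.7% higher and 19.7% lower. These features include single rows without a symbol. Among the 10392 tested genes with a symbol, calls were more common, with 2703 higher, 2343 lower and 5346 that did not pass. All 10 iron genes were above the minimum level. Their median log2 fold change was 0.50, against 0.02 over the 10392 tested genes with a symbol, and TFRC alone reached a change of at least 2-fold. The RPKM values of the groups did not overlap for 9 of the 10 genes, which held for 59.8% of the tested genes with a symbol. An exact two-sided permutation test cannot go below p = 0.1 with 3 libraries against 3, and gave that value for each of the 9.

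**Figure D1:**
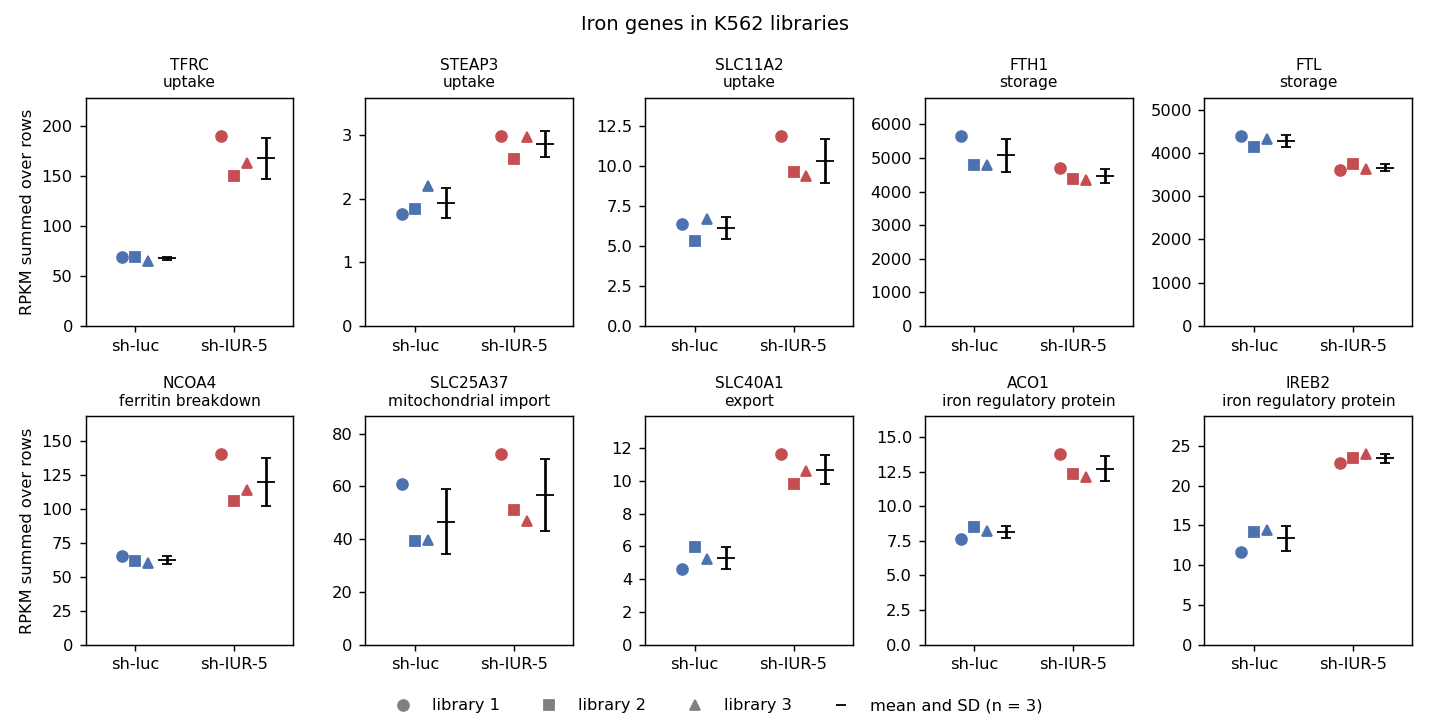
RPKM summed over the rows of each iron gene (y axis from 0, scaled per gene) in the 3 sh-luc and 3 sh-IUR-5 libraries, with symbols for the library number and the mean and SD of each group. Groups are apart in every panel except SLC25A37, where library 1 stands high in both groups, and the 2 ferritin genes are the only ones lower in sh-IUR-5.

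Among the uptake genes, TFRC, which encodes the transferrin receptor CD71, had 68.7, 68.6 and 65.4 RPKM in sh-luc libraries 1 to 3. It had 190, 150 and 163 RPKM in the sh-IUR-5 libraries. Every sh-IUR-5 library was more than 2 times the highest control, and the sh-luc libraries lay much closer together (67.6 ± 1.89, SD, n = 3) than the sh-IUR-5 libraries (168 ± 20.4). The log2 fold change was 1.12 ± 0.08 (SE; edgeR adjusted p = 2.4e-06), the 74th highest of 10392 genes. SLC11A2, the divalent metal transporter DMT1 that carries iron across the endosomal membrane, had 6.37, 5.34 and 6.67 RPKM in sh-luc against 11.9, 9.62 and 9.41 in sh-IUR-5. The groups were apart at a level far below that of TFRC in sh-luc, and the log2 fold change was 0.55 ± 0.11 (SE; edgeR adjusted p = 0.0012). STEAP3, the endosomal ferrireductase, had the lowest level of the 10 genes, with 1.76, 1.85 and 2.20 RPKM in sh-luc against 2.99, 2.62 and 2.97 in sh-IUR-5. These levels rested on 58 to 138 reads per library. The groups did not overlap, yet the log2 fold change of 0.37 ± 0.15 (SE) did not pass the threshold (edgeR adjusted p = 0.058), and its 95% interval ran from 0.05 to 0.68. Without sh-luc library 3 it was 0.46 and passed (edgeR adjusted p = 0.047). With any other single library left out, STEAP3 did not pass (edgeR adjusted p from 0.072 to 0.18).

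Ferritin is a shell of heavy and light subunits, and FTH1 encodes the heavy subunit, which oxidises iron. FTH1 had 5653, 4797 and 4779 RPKM in sh-luc against 4710, 4360 and 4331 in sh-IUR-5. All 3 sh-IUR-5 values were lower, but the gap between the lowest control and the highest sh-IUR-5 library was small beside the spread of the controls (5076 ± 500, SD, n = 3). Its log2 fold change was -0.38 ± 0.07 (SE; edgeR adjusted p = 0.00099). FTL, the light subunit, had 4393, 4132 and 4328 RPKM in sh-luc against 3607, 3750 and 3627 in sh-IUR-5. Its groups were further apart, and the log2 fold change was -0.42 ± 0.06 (SE; edgeR adjusted p = 0.00016). The ratio of FTH1 to FTL was 1.18 ± 0.09 in sh-luc and 1.22 ± 0.08 in sh-IUR-5 (SD, n = 3), which overlapped between the groups (exact two-sided permutation p = 0.5). The size of the fall depended on the scaling, since with total reads alone it was -0.18 for FTH1 and -0.22 for FTL, and FTH1 did not pass with limma on log2(RPKM + 0.1) (adjusted p = 0.063). FTH1 and FTL have processed pseudogenes in the genome, and how reads that fit several places were assigned is not given in the sources used here.

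NCOA4 is the receptor that carries ferritin to the lysosome for breakdown. It had 65.6, 61.9 and 60.1 RPKM in sh-luc against 140, 106 and 114 in sh-IUR-5. The sh-IUR-5 libraries were all clearly above the controls, with library 1 the highest in each group. Its log2 fold change of 0.74 ± 0.09 (SE; edgeR adjusted p = 1.9e-05) was opposite in direction to those of both ferritin subunits.

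SLC25A37, mitoferrin-1, imports iron into mitochondria for heme synthesis. It had 60.8, 39.1 and 39.6 RPKM in sh-luc against 72.1, 51.0 and 46.9 in sh-IUR-5. Library 1 was the highest in both groups, and the control library 1 exceeded 2 of the 3 sh-IUR-5 libraries. The log2 fold change was 0.11 ± 0.16 (SE; edgeR adjusted p = 0.61), with a 95% interval from -0.23 to 0.46.

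SLC40A1 encodes ferroportin, the known cellular iron exporter. It had 4.65, 5.98 and 5.21 RPKM in sh-luc against 11.6, 9.85 and 10.6 in sh-IUR-5. Every sh-IUR-5 library was above every control, and the log2 fold change was 0.82 ± 0.11 (SE; edgeR adjusted p = 4.9e-05), next to that of TFRC among the 10 genes. The ratio of TFRC to SLC40A1 was 12.9 ± 1.69 in sh-luc and 15.6 ± 0.61 in sh-IUR-5 (SD, n = 3; exact two-sided permutation p = 0.1, the smallest possible). The receptor for uptake and the exporter were both higher.

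ACO1 encodes IRP1, which is a cytosolic aconitase when it holds an iron-sulfur cluster and binds the element when it does not. It had 7.68, 8.52 and 8.23 RPKM in sh-luc against 13.8, 12.3 and 12.1 in sh-IUR-5, and the groups were apart. The log2 fold change was 0.45 ± 0.08 (SE; edgeR adjusted p = 0.00079). IREB2 encodes IRP2, which is degraded when iron is plentiful. It had 11.6, 14.2 and 14.4 RPKM in sh-luc against 22.9, 23.6 and 23.9 in sh-IUR-5, and its sh-IUR-5 libraries were the most alike of the risers relative to their level. The log2 fold change was 0.62 ± 0.10 (SE; edgeR adjusted p = 0.00017). IREB2 stood above ACO1 by a ratio of 1.64 ± 0.12 in sh-luc and 1.85 ± 0.17 in sh-IUR-5 (SD, n = 3), and these ratios overlapped (exact two-sided permutation p = 0.3).

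**Figure D2:**
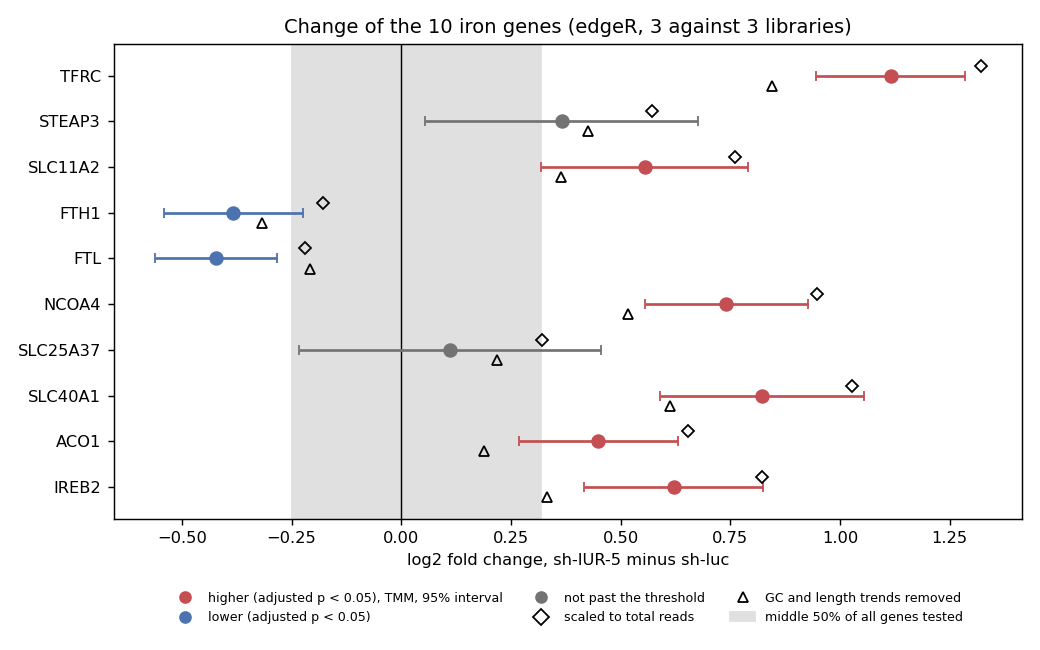
Log2 fold change (x axis, sh-IUR-5 minus sh-luc) of each iron gene with its 95% interval after TMM scaling, beside the values with scaling to total reads (diamonds) and with trends on coding GC content and length removed (triangles), while the grey band holds the middle 50% of tested genes with a symbol, from -0.25 to 0.32. TFRC lies furthest right at 1.12, both ferritin genes lie left of 0 under all 3 settings, and ACO1 falls to 0.19 with the trends removed.

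The 10 mRNAs spanned a wide range of levels. In sh-luc the order by mean RPKM was FTH1, FTL, TFRC (67.6), NCOA4 (62.5), SLC25A37 (46.5), IREB2 (13.4), ACO1 (8.14), SLC11A2 (6.13), SLC40A1 (5.28) and STEAP3 (1.94). The libraries of TFRC and NCOA4, of NCOA4 and SLC25A37, and of SLC11A2 and SLC40A1 overlapped, so their order was not resolved, while the other neighbours were apart. In sh-IUR-5 the order of SLC11A2 and SLC40A1 was exchanged, with overlapping values, and TFRC and NCOA4 no longer overlapped. The 2 ferritin subunits took 97.8% ± 0.04 of the summed RPKM of the 10 genes in sh-luc and 95.3% ± 0.51 in sh-IUR-5 (SD, n = 3). FTH1 exceeded TFRC by a ratio of 75.1 ± 6.43 in sh-luc and 26.8 ± 2.14 in sh-IUR-5 (exact two-sided permutation p = 0.1, the smallest possible), with no overlap.

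The genes with an element in the 5′ untranslated region did not move together. FTH1 and FTL were lower and SLC40A1 was higher, while TFRC, with its elements in the 3′ untranslated region, was higher. Promoter windows of 300 bases around the RefSeq starts of 8 of the 10 genes (13 windows, GRCh38.p14), all but FTH1 and SLC25A37, were also searched on both strands for short motifs. The STAT motif TTCNNNGAA was in none of the 13 windows and in 7.66% of all 35116 windows. The E-box CACGTG was in none and in 7.26% of all, and the GATA motif AGATAA was found in a window of SLC11A2 and in 10.3% of all. No match says only that these letters are absent from these windows.

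The labels place library 1 of each group in one series of libraries and libraries 2 and 3 in another, and the differences were computed within each series. For TFRC the difference in log2 TMM-scaled reads was 1.23 in the series of library 1 and 1.05 in that of libraries 2 and 3. For SLC40A1 the values were 1.08 and 0.70, for NCOA4 0.85 and 0.67, for IREB2 0.76 and 0.56, for SLC11A2 0.66 and 0.50, and for ACO1 0.60 and 0.37. The ferritin genes gave -0.51 and -0.31 for FTH1 and -0.53 and -0.37 for FTL. STEAP3 gave 0.52 and 0.28, and SLC25A37 0.03 and 0.17. The sign was the same in both series for all 10 genes, as for 85.4% of all tested genes with a symbol, and the difference was larger in the series of library 1 for 9 of the 10, as for 65.9% of all genes. With libraries 2 and 3 of each shRNA summed, 2 against 2, the count was again 6 higher and 2 lower of the 10.

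Single rows were then read to see whether isoforms of a gene moved apart. Of the 38 rows, 27 were above the minimum of 1 RPKM, of which 19 were higher and 2, those of FTH1 and FTL, were lower. Over all 38204 rows tested, 19.2% were higher and 18.1% lower. The 4 rows of TFRC had log2 fold changes from 1.06 to 1.17, the 5 of NCOA4 from 0.69 to 0.80, the 4 of IREB2 from 0.49 to 0.71 and the 2 of ACO1 from 0.42 to 0.49. All 6 rows of SLC25A37 lay between -0.17 and 0.32, and none passed. SLC11A2 had 9 rows, of which 3 were above the minimum, with log2 fold changes from 0.62 to 0.84, and none of the 5 rows of STEAP3 was above it. None of the 24 rows that could be tested against the rest of their gene differed from it (limma's diffSplice, smallest adjusted p = 0.9997). Over the table, 1.38% of 23295 rows did. Some rows of equal length had similar reads: the 2 rows of ACO1, both 2670 bases, had 236 and 242 reads in sh-luc library 1, and the 3 rows of NCOA4 of 1845 bases had 569, 595 and 578. Rows with few reads were less alike, as the 3 rows of STEAP3 of 1467 bases had 18, 7 and 13. How reads shared by isoforms were divided is not given in the sources used here, so the rows are not independent measurements. Rows that hold divided shared reads would move together in any case. The lack of a difference between rows therefore cannot show that the isoforms of a gene kept together.

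Coding GC content and length moved with the changes over the whole table. The 10272 genes with a known coding sequence were split into 4 equal bins. By coding length, the median log2 fold change was -0.20 in the shortest bin (up to 828 bases) and -0.03, 0.09 and 0.20 in the longer ones. In the shortest bin, 40.0% of genes were called lower and 11.6% higher. By coding GC content, from low to high, the medians were 0.17, 0.11, -0.05 and -0.11. FTH1 (549 bases) and FTL (525 bases) belonged to the shortest bin. TFRC, ACO1 and IREB2 belonged to the longest, above 2130 bases, and all 6 risers lay in the lower 2 bins of GC content, from 40.5% for IREB2 to 48.4% for SLC11A2. FTH1, which was lower, lay in these bins too, at 49.4%. In the longest bin, 42.9% of genes were called higher and 11.3% lower. In the 2 bins of lowest GC content, 40.3% and 33.5% were called higher, and 14.5% and 18.4% lower. With each library's trends on both properties removed, the log2 fold changes were 0.84 for TFRC, 0.61 for SLC40A1, 0.52 for NCOA4, 0.36 for SLC11A2, 0.33 for IREB2, -0.32 for FTH1 and -0.21 for FTL, and each of these still passed. ACO1, at 0.19, did not pass (edgeR adjusted p = 0.055), whereas STEAP3, at 0.43, passed (edgeR adjusted p = 0.043).

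**Figure D3:**
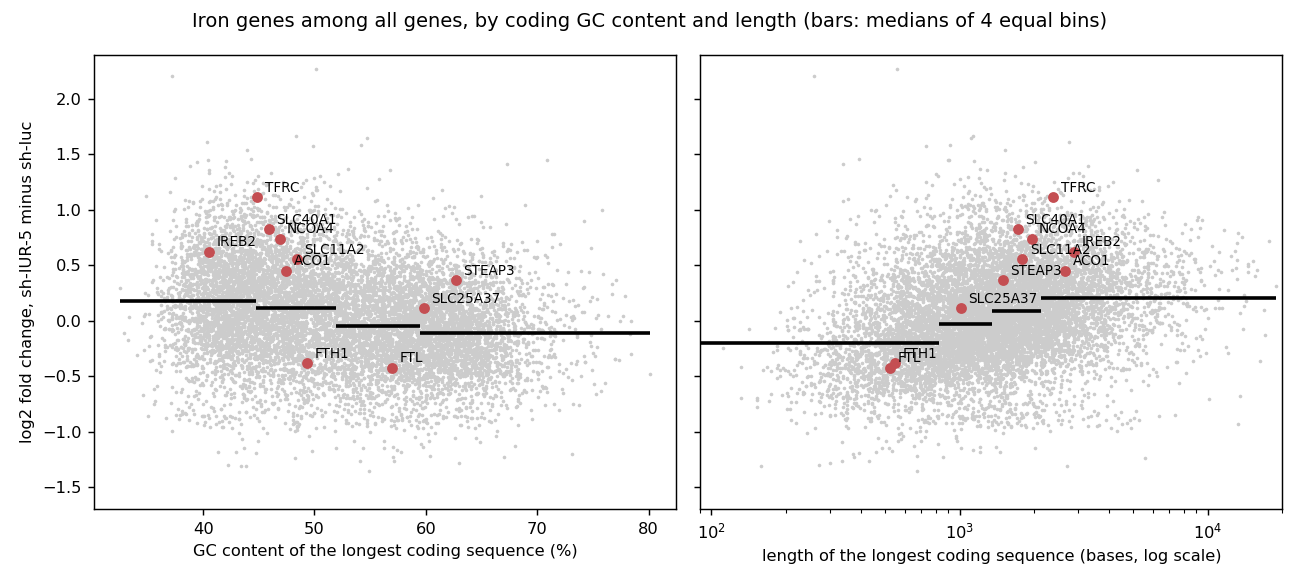
Log2 fold change (y axis) of the tested genes with a symbol (grey) and the 10 iron genes (red) against the GC content in percent (left) and the length in bases on a log axis (right) of the longest coding sequence, with bars at the medians of 4 equal bins. The medians run from 0.17 down to -0.11 with rising GC content and from -0.20 up to 0.20 with rising length, and the ferritin genes stand among the short genes.

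The wider iron machinery was read from a list of 51 further genes in the table. Of these, 41 were above the minimum, 6 were higher, 11 were lower and 24 did not pass. Thus 17 of the 41 passed, where 2703 of the 10392 tested genes with a symbol were higher and 2343 lower. The share of the list was below that of these genes. The list had a median log2 fold change of -0.09, which turned to 0.11 with total reads alone. The median of the 10 genes was 0.50, or 0.71 with total reads alone. The largest rises were those of CDC14A (0.93 ± 0.13), a phosphatase whose 3′ untranslated region held the pattern, EPAS1 (0.90 ± 0.17), the hypoxia factor HIF-2α, which is a known carrier of an element but had no match to the pattern, and ABCB10 (0.69 ± 0.09), a mitochondrial transporter known to stabilise mitoferrin-1. CDC14A rose from 2.46 ± 0.16 to 5.38 ± 0.62 RPKM, EPAS1 from 1.24 ± 0.05 to 2.65 ± 0.72 and ABCB10 from 36.7 ± 1.995 to 67.5 ± 11.04 (SD, n = 3), and the groups did not overlap for any of them. Their adjusted p-values in edgeR were 7.1e-05, 0.00077 and 6.3e-05.

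The largest falls were those of STEAP2 (-0.92 ± 0.07), LYRM4 (-0.77 ± 0.08) and SLC39A14 (-0.66 ± 0.09), with edgeR adjusted p-values of 2.4e-06, 7.2e-06 and 9.9e-05. STEAP2 is a metalloreductase, LYRM4 a subunit of the complex that starts iron-sulfur clusters, and SLC39A14 a zinc and iron transporter. STEAP2 fell from 150 ± 7.64 to 90.7 ± 1.84 RPKM, LYRM4 from 474 ± 22.7 to 328 ± 20.9 and SLC39A14 from 14.7 ± 1.05 to 10.7 ± 1.04 (SD, n = 3). In each of these genes, nearly all reads or most of them lay on a single row. The fall given for each gene is thus mainly that of this row, and it does not describe the gene's other rows. For STEAP2, 1 of its 13 rows held all of the sh-luc reads, and for SLC39A14 1 of 5 rows held 97.4%, while its other rows together had 13, 11 and 13 reads in sh-luc and 45, 25 and 25 in sh-IUR-5. For LYRM4, 1 of 7 rows held 84.4% of the sh-luc reads and fell by 0.93 on the log2 scale. Its other rows together had 651, 567 and 585 reads in sh-luc and 818, 780 and 705 in sh-IUR-5. The row with most reads differed from the rest of the gene (limma's diffSplice, adjusted p = 3.6e-06).

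The other measured carriers of the element did not share the rise of CDC14A and EPAS1. ALAS2, the erythroid enzyme that starts heme synthesis, had 7.06 ± 3.01 RPKM in sh-luc and 7.72 ± 2.54 in sh-IUR-5 (SD, n = 3). It did not pass, with a log2 fold change of -0.07 that turned to 0.14 with total reads alone. CDC42BPA, a kinase that is a known carrier with no match to the pattern, had a log2 fold change of -0.22 ± 0.07 (edgeR adjusted p = 0.025), which was -0.02 with total reads alone and no longer passed (edgeR adjusted p = 0.83).

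By role, the heme breakdown genes were the only group in which all measured members were called in 1 direction among groups of at least 3 measured genes. HMOX2, BLVRA and BLVRB, a heme oxygenase and the biliverdin reductases, had log2 fold changes of -0.50, -0.58 and -0.55, and their median was still -0.34 with total reads alone. Of the 10392 tested genes with a symbol, 2343 were lower, and the group was singled out after its values were seen. BLVRB (735 bases) lay in the shortest bin of coding length, where 40.0% were called lower. BLVRA (888) and HMOX2 (1110) lay in the second, where 22.9% were. Values with these trends removed are not given for them. HMOX1, the inducible heme oxygenase, had 0 reads in all 6 libraries, which allows up to 3 reads per library by counting error. Of the 6 measured genes that control the iron regulatory proteins, FBXL5, the iron-sensing subunit of the ligase that degrades IRP2, was higher (0.63 ± 0.10, edgeR adjusted p = 0.00017), CIAO2B was lower and 4 did not pass. Of the 17 genes for mitochondrial iron and iron-sulfur cluster assembly, 1 was higher, 3 were lower and 13 did not pass. Of the 6 measured genes for other uptake routes and reductases, 1 was higher, the metal transporter SLC39A8 (0.53 ± 0.09), 2 were lower and 3 did not pass, among them TFR2, another transferrin receptor (39.3 ± 3.91 RPKM in sh-luc and 42.1 ± 5.54 in sh-IUR-5). The 4 measured genes for chaperones and storage held 1 that was lower, BOLA2, and the ferroxidase HEPH was higher (0.40 ± 0.09).

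**Figure D4:**
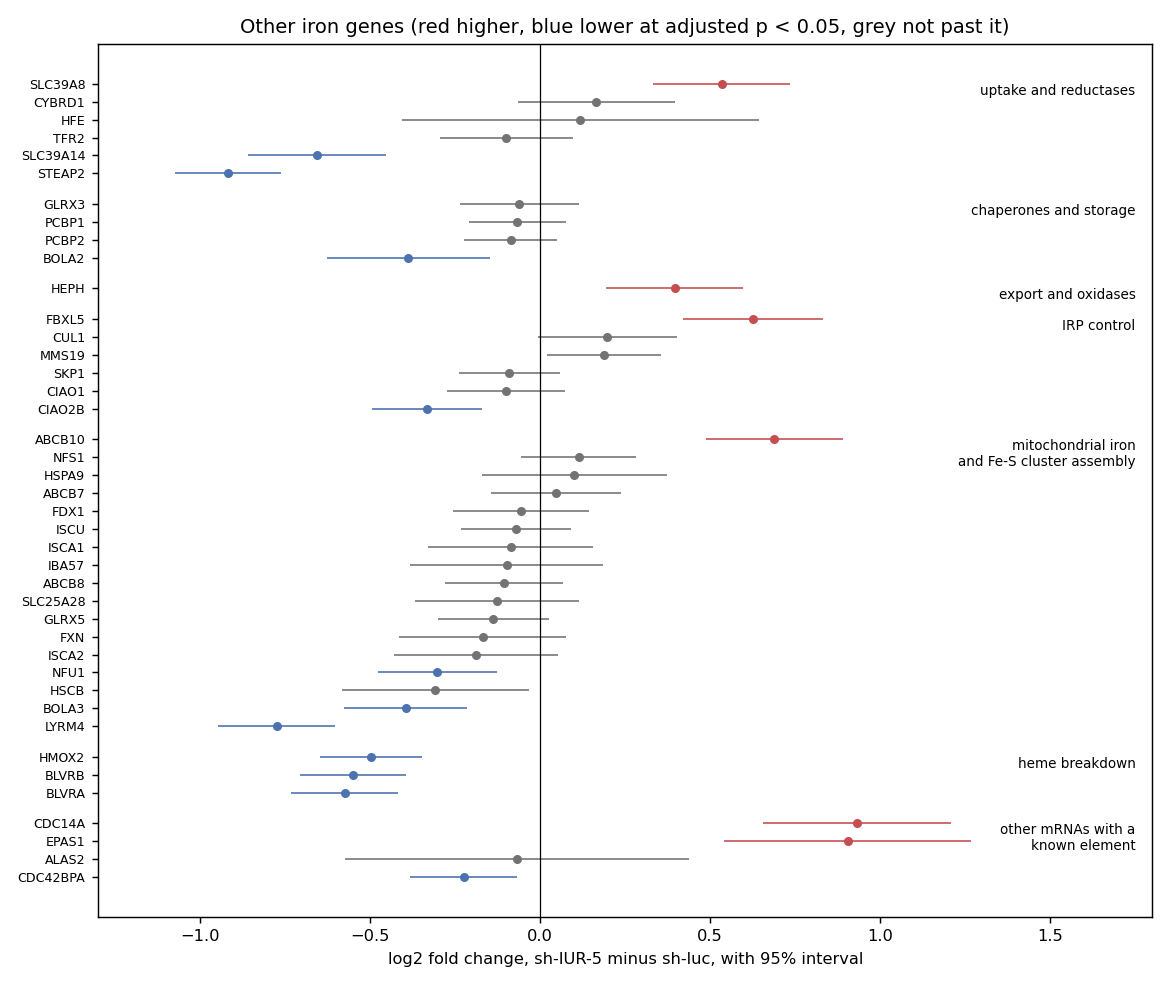
Log2 fold change with its 95% interval (x axis) of the 41 measured genes of the wider iron list, grouped by role (y axis), with red for higher, blue for lower and grey for not past an adjusted p of 0.05. CDC14A and EPAS1 lie furthest right at 0.93 and 0.90 and STEAP2 furthest left at -0.92, and the 3 heme breakdown genes all lie left of 0.

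The genes whose profile was nearest to that of TFRC were found by the root-mean-square distance of centred log2 TMM-scaled reads over the 6 libraries, among 10391 other genes. They were MTPN (0.033), ATP13A3 (0.047), FNDC3A (0.050), MAN2A1 (0.052) and ARRDC3 (0.062), with log2 fold changes of 1.10, 1.07, 1.13, 1.03 and 1.06. No iron gene was among them. SLC40A1 was the nearest of the iron genes, in place 244 at a distance of 0.18, followed by NCOA4 in place 294, IREB2 in place 937, SLC11A2 in place 1037 and ACO1 in place 1422. FTH1 and FTL stood in places 8575 and 8895. The order of these iron genes was that of their log2 fold changes, so the distances show no likeness to TFRC beyond the size of the change.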

How the data were processed

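RNA-seq was done on total RNA of K562 cells expressing sh-IUR-5 or sh-luc, 3 libraries each. Groups came from the sample labels. The submitters' processing notes name CASAVA 1.8, Trimmomatic 0.32, Bowtie2 2.1.0, SAMtools 0.1.19 and hg38. Read counts were deposited by the authors as whole numbers for every RefSeq protein, not normalized, beside RPKM values that equalled reads per kilobase of row length scaled to the library's summed reads. A second deposited table, holding the authors' own comparison of pooled groups, was not used. Symbols were matched for 64.69% of rows through RefSeq genes of GRCh38.p14, and 15.2% to 16.1% of reads lay on rows without one, which were tested as single features.

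Rows of a gene were summed, and features with a mean of at least 1 RPKM over the 6 libraries were tested with edgeR 4.0.16 (R 4.3.3): TMM scaling, quasi-likelihood test, two-sided, Benjamini-Hochberg adjustment, threshold 0.05. Rows were tested likewise, and each row against the rest of its gene with limma's diffSplice after voom weighting. An exact permutation test (two-sided) served for single values. Alternatives used DESeq2 1.42.0, limma 3.58.1 on log2(RPKM + 0.1) or log2(RPKM + 1), other scalings and minimums, library series, each library left out, and trends on coding GC content and length (mgcv 1.9.3; 98.8% of tested genes with a symbol and all 10 iron genes had values). Scripts were tested on simulated data. Same-group libraries differed by more than sampling noise, measured as chi-square per feature, where sampling alone gives 1. The value was 3.14 in sh-luc and 2.27 in sh-IUR-5 between libraries 2 and 3, and 5.71 to 10.9 for pairs with library 1. A value above 1 cannot tell technical from biological spread, and libraries were counted separately.

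The iron genes and lists were chosen with earlier results of these data known. The text names all 10 iron genes and, of the other iron list, the 3 largest rises and falls past the threshold and measured carriers of a known element. It also names the 5 genes nearest to TFRC. FBXL5, CIAO2B, SLC39A8, TFR2, BOLA2, HEPH and the heme breakdown genes were named after their values were seen. The results of 2 listed genes are not reported here.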

Additional observations from a re-analysis of the deposited data

How the results depend on the processing

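TFRC, SLC11A2, FTL, NCOA4, SLC40A1 and IREB2 kept their direction and passed the threshold under all 21 alternatives, TFRC at log2 fold changes from 0.84 to 1.32. FTH1 missed it with limma on log2(RPKM + 0.1) and on log2(RPKM + 1) (adjusted p = 0.063 and 0.061), ACO1 with GC and length trends removed, and STEAP3 passed under 8 of 19 alternatives and had no value at a minimum of 5 RPKM or with 1 row per gene. Leaving out single libraries, SLC25A37 ran from -0.073 (without sh-IUR-5 library 1) to 0.35 and ALAS2 from -0.34 to 0.35. ALAS2 turned to 0.14 with total reads, 0.16 and 0.14 with limma, 0.0035 at a minimum of 5 RPKM, and 0.35 and 0.09 without sh-luc library 1 or sh-IUR-5 library 3. CDC14A, EPAS1, ABCB10, STEAP2, LYRM4 and SLC39A14 passed under each alternative that gave a value, and CDC42BPA lost its call under 9 of 21, among them those without sh-luc library 1, sh-luc library 2 or sh-IUR-5 library 2. The cause was not tested.

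Features called numbered 5659 at a minimum of 5 RPKM, where 11263 were tested. Over the 10272 genes with a coding sequence they numbered 4904, and 4694 with trends removed. Of calls, 51.2% were higher with TMM scaling and 80.2% with total reads (10228 calls). Without 1 library each, 7157 to 8604 features passed, and rows apart from their gene numbered 200 to 287, with 200 without sh-luc library 1 and 200 without sh-luc library 2, and 211 without sh-IUR-5 library 2. These diffSplice alternatives and the fit to the 10272 genes were chosen after seeing the data. Deviations from the group mean were alike for library 1 of both groups (correlation 0.34). Those of sh-luc library 1 correlated at -0.20 and -0.22 with sh-IUR-5 libraries 2 and 3. Same-numbered libraries 2 and 3 gave 0.10 and -0.01, while sh-luc library 2 with sh-IUR-5 library 3 gave 0.25. Library 1 was thus set apart in both groups, and libraries 2 and 3 did not pair by number. With the label series as a term, 11262 features passed. With the replicate number as a block, 10698 features, 9 of the 10 iron genes (STEAP3 in addition, adjusted p = 0.041) and 405 rows apart from their gene passed, and over the 10272 genes 5892, or 5859 with trends removed, when all 10 iron genes passed. STEAP3 also passed with the label series as a term (adjusted p = 0.034) but not with libraries 2 and 3 summed (adjusted p = 0.0998). Its value rested on 58 to 138 reads per library.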
